A study of Homo sapiens with 18 samples.

Results

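A set of 10 genes that encode bromodomain proteins outside the BET family, ATAD2, ATAD2B, BPTF, BRPF1, BRPF3, BRD1, BRD8, CECR2, BAZ2A and BAZ2B, were followed in OVCAR-3 cells treated with BET inhibitors (BETi). They were found by mapping to symbols the Ensembl gene identifiers of the count tables, and all 10 of the 10 listed genes were found, 1 row each, among 58825 genes. OVCAR-3 is an established cell line of high-grade serous ovarian cancer, and all cells here were of this line, grown in 12-well plates in RPMI medium and treated in stripped medium. Cells received DMSO vehicle, 1 µM i-BET858 or 1 µM i-BET151 for 4 h or 24 h, giving 6 conditions with 3 replicates and 18 libraries of poly-A RNA, prepared from total RNA. The 2 drugs share the DMSO libraries of their time point, so their comparisons with DMSO are not independent of each other.

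The bromodomain is a small helical fold that binds acetylated lysine, chiefly on histone tails, and so ties transcription and remodelling factors to active chromatin. BET proteins, such as BRD2, BRD3 and the testis protein BRDT, carry tandem bromodomains, and BETi occupy their acetyl-lysine pocket. The genes described here encode the readers that lie outside that family. ATAD2 and ATAD2B are AAA+ ATPases with a bromodomain, ATAD2 being a coactivator of E2F and MYC that is abundant in many carcinomas. BPTF is the large subunit of the remodeller NURF, and CECR2, BAZ2A and BAZ2B are also partners of ISWI remodelling ATPases, BAZ2A (also TIP5) being known for silencing ribosomal RNA genes in the complex NoRC. BRPF1, BRD1 (also BRPF2) and BRPF3 are scaffolds of the MYST histone acetyltransferases KAT6A, KAT6B and KAT7, and BRD8 is a subunit of the acetyltransferase complex NuA4/TIP60.

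In GRCh38, with the gene models of GENCODE 44, the genes lie as follows. The ATPase pair comprises ATAD2 (ENSG00000156802.13) at chr8:123319850-123416350 on the minus strand and ATAD2B (ENSG00000119778.15) at chr2:23748664-23927123 on the minus strand. The ISWI partners comprise BPTF (ENSG00000171634.18) at chr17:67825503-67984378 on the plus strand, CECR2 (ENSG00000099954.18) at chr22:17359949-17558151 on the plus strand, BAZ2A (ENSG00000076108.11) at chr12:56595596-56636816 on the minus strand and BAZ2B (ENSG00000123636.18) at chr2:159318979-159616569 on the minus strand. The acetyltransferase scaffolds and subunits comprise BRPF1 (ENSG00000156983.15) at chr3:9731729-9748019 on the plus strand, BRPF3 (ENSG00000096070.19) at chr6:36196744-36232790 on the plus strand, BRD1 (ENSG00000100425.18) at chr22:49773283-49827873 on the minus strand and BRD8 (ENSG00000112983.17) at chr5:138139770-138178953 on the minus strand. Besides BAZ2A and BRD8, the exons of ATAD2 overlap a pseudogene, IMPDH1P6, with 0 to 13 counts in any library, those of BPTF, CECR2 and BAZ2B overlap non-coding models, and those of ATAD2B, BRPF1, BRPF3 and BRD1 overlap no other gene.

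The libraries held 27323969 to 46299994 counts in genes, with a median of 32267434. Replicate 3 of every condition, whose source label differs from that of replicates 1 and 2, had a count for fewer genes (17817 to 20642 against 23674 to 24947). Levels are given as counts per 1000000 after scaling with the TMM factors of edgeR (CPM). All 8 epithelial and serous markers were present in every library, the lowest being MUC16 at 54.2 CPM. The leukocyte markers CD3E and CD68 and the fibroblast markers DCN and LUM stayed at or below 0.255 CPM. Summed levels ranged from 6.62e+03 to 1.19e+04 CPM for the epithelial list, from 21.4 to 50.5 CPM for 5 fibroblast markers, nearly all COL1A1, from 0 to 1.69 CPM for 4 leukocyte markers and from 0.578 to 5.37 CPM for 3 endothelial markers. The epithelial sum was 8.44e+03 to 9.93e+03 CPM with DMSO at 4 h, 1.13e+04 to 1.19e+04 CPM under i-BET858 and 9.52e+03 to 1.01e+04 CPM under i-BET151. At 24 h it was 8.49e+03 to 9.99e+03 CPM with DMSO, 6.62e+03 to 7.01e+03 CPM under i-BET858 and 6.65e+03 to 7.17e+03 CPM under i-BET151. The part of these shifts in the results was not tested.

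In vehicle-treated cells the bromodomain genes spanned a wide range of levels. On the scale of CPM per kb of merged exons, which allows genes of different length to be compared, ATAD2 was highest at 23.3 ± 3.19 (SD, n = 6 DMSO libraries of both times). BAZ2A followed at 11.3 ± 1.7, BPTF at 9.2 ± 2.95, BRD8 at 8.52 ± 1.8, BRD1 at 7.6 ± 0.938 and BRPF3 at 7.31 ± 1.5, and these 5 overlapped from one to the next. BRPF1 lay lower, at 4.16 ± 0.582, and ATAD2B and BAZ2B lower again, at 1.28 ± 0.274 and 0.964 ± 0.221, which overlapped each other. CECR2 was close to the limit of detection at 0.0317 ± 0.0183. Of the 9 neighbouring pairs in this order, 4 did not overlap, namely ATAD2 and BAZ2A, BRPF3 and BRPF1, BRPF1 and ATAD2B, and BAZ2B and CECR2. With the length of the longest transcript in place of merged exons, ATAD2 stayed highest and CECR2 lowest, while BRD8 moved above BAZ2A and BPTF, BAZ2B moved above ATAD2B, and 3 neighbouring pairs did not overlap.

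The first comparison asked how these genes respond to 4 h of i-BET858. Transcripts of ATAD2B, BPTF, BRPF3 and BAZ2A fell, each to between 0.492 and 0.563 of the DMSO level, ATAD2 rose to 1.39 of it, and the other 5 genes did not pass the test. These 5 called genes of 10 stand against 30.8% of all 17192 genes tested that were called at an adjusted p under 0.05 (edgeR quasi-likelihood test, Benjamini-Hochberg adjustment over all genes), and the 4 that fell and the 1 that rose against 16.3% and 14.5% of all genes called in those directions. The median log2 fold change was -0.28 over the 10 genes and 0.02 over all genes. A change of at least 2-fold was reached by ATAD2B alone, against 14.1% of all genes. In RNA from whole cultures, fewer transcripts in each cell and fewer cells that carry them cannot be told apart.

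ATAD2B, the less abundant relative of ATAD2, was read at 13.4, 18 and 14.4 CPM in the DMSO libraries, replicates 1 to 3, and at 7.70, 9.26 and 5.54 CPM after 4 h of i-BET858. All treated libraries lay below all DMSO libraries. The log2 fold change was -1.02 (SE 0.21, adjusted p = 0.00366 in edgeR), larger in size than that of 79.5% of genes tested. BRPF3, a scaffold of the KAT7 acetyltransferase, stood at 45.1, 59.7 and 59.7 CPM with DMSO and 20.7, 32.9 and 30.4 CPM under i-BET858. Again no treated library reached the lowest DMSO library, and the log2 fold change was -0.97 (SE 0.21, adjusted p = 0.0046 in edgeR).

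BPTF, the histone-reading subunit of NURF, was measured at 140, 174 and 184 CPM with DMSO and at 90.2, 107 and 76.1 CPM under i-BET858. The groups were apart, with a log2 fold change of -0.86 (SE 0.15, adjusted p = 0.00118 in edgeR). BAZ2A was at 110, 135 and 153 CPM with DMSO and at 62.6, 77.2 and 83.4 CPM under i-BET858, also without overlap, and its log2 fold change was -0.83 (SE 0.17, adjusted p = 0.00363 in edgeR). In the annotation, 598 bases of BAZ2A exon (5.5%) overlap those of RBMS2 on the opposite strand. RBMS2 itself was read at 2040 to 2283 counts with DMSO and 1126 to 1576 counts under i-BET858 at 4 h, so the neighbour was lower in the same libraries. Whether the counting used strand is not given in the sources used here, and the part of RBMS2 in the BAZ2A counts was not tested.

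ATAD2, in contrast to its relative, was at 199, 166 and 176 CPM with DMSO and at 224, 318 and 209 CPM after i-BET858. Each treated library lay above each DMSO library, with replicate 2 the highest by far. The log2 fold change was 0.48 (SE 0.16, adjusted p = 0.0414 in edgeR). This call was lost on leaving out i-BET858 replicate 2 (log2 fold change 0.27, adjusted p = 0.18), on leaving out any 1 of the 3 DMSO libraries (adjusted p = 0.0573 to 0.15) or i-BET151 replicate 1 or 2 (adjusted p = 0.0634 and 0.0589), and with scaling by total library size (0.32, adjusted p = 0.173).

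**Figure D1:**
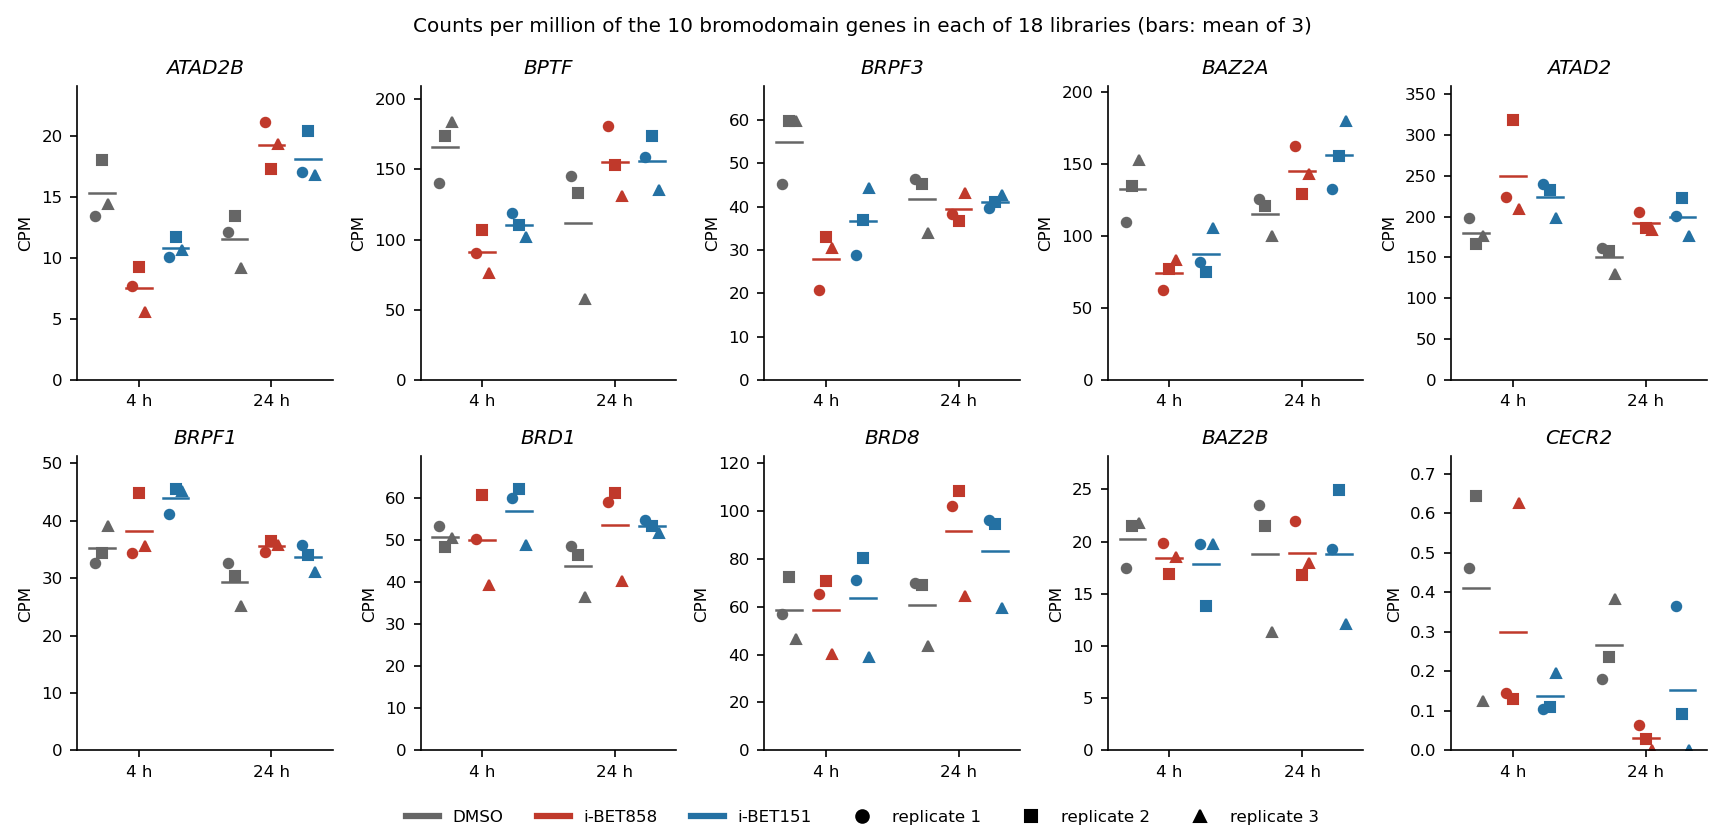
Counts per 1000000 (CPM) of each of the 10 genes in all 18 libraries, grouped by time (x axis) and treatment (colour), with the replicate number as the marker and the mean of 3 replicates as a bar; each panel has its own y axis from 0. ATAD2B, BPTF, BRPF3 and BAZ2A were below DMSO at 4 h under i-BET858, at 7.5, 91.1, 28 and 74.4 CPM on average, and at 19.2, 155, 39.4 and 145 CPM at 24 h.

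BRPF1, BRD1, BRD8, BAZ2B and CECR2 did not pass the test after 4 h of i-BET858. BRPF1 was read at 32.6 to 39.0 CPM with DMSO and 34.3 to 44.8 CPM with the drug, and BRD1 at 48.3 to 53.3 and 39.2 to 60.7 CPM. BRD8 was at 46.6 to 72.3 and 40.2 to 70.5 CPM, and BAZ2B at 17.5 to 21.8 and 16.9 to 19.9 CPM. The groups overlapped in each case. Their log2 fold changes were 0.12, -0.02, 0.00 and -0.14, with adjusted p between 0.58 and 0.993 in edgeR, and the 95% intervals of these 4 values lay between -0.60 and 0.61. CECR2 had 15, 25 and 4 counts with DMSO and 4, 4 and 22 counts under i-BET858, with a log2 fold change of -0.43 (SE 0.88, adjusted p = 0.761 in edgeR). Replicate 3 was the lowest DMSO library and the highest treated one, and in replicates 1 and 2 alone CECR2 was called lower (-1.98, adjusted p = 0.0208). Its limit of 3 counts corresponded to 0.0648 to 0.11 CPM across libraries.

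Scaling affected the sign of the smallest of these values. With scaling by total library size in place of the TMM factors of edgeR, the median of all genes at 4 h of i-BET858 moved from 0.02 to -0.14, and the share of called genes that were higher from 47.1% to 32%. BRPF1 and BRD8 then turned to -0.04 and -0.15, while ATAD2B, BRPF3, BPTF and BAZ2A stood at -1.18, -1.13, -1.02 and -0.99, below the shifted median as before. These 4 genes were called lower in every alternative fit of this comparison.

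The sequences upstream of genes that fell together are shown so that shared elements can be looked for. RefSeq promoter entries (assembly GRCh38.p14) are described for 8 of the 10 genes, 13 entries in all. None is given for BPTF, and ATAD2 was left out of this step, so its windows are not described. The 250 bases before the annotated start are printed 5′ to 3′ on the gene's strand, with each GC box (GGGCGG, or CCGCCC on the other strand), the hexamer bound by SP1-like factors, in capitals. The windows lie at chr2:23927124-23927373 on the minus strand for ATAD2B, chr6:36196494-36196743 on the plus strand for BRPF3, and chr12:56636360-56636609 and chr12:56630327-56630576 on the minus strand for the 2 starts of BAZ2A.
ATAD2B: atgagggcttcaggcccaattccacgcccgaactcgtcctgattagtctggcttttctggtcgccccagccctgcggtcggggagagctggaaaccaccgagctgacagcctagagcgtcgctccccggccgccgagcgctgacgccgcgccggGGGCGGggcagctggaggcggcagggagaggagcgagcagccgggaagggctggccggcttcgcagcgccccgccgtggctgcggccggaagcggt
BRPF3: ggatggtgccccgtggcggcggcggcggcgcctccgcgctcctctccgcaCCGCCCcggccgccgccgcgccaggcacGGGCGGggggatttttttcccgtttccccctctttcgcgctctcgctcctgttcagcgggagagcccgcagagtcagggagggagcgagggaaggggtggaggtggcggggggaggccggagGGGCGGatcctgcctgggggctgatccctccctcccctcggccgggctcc
BAZ2A, first start: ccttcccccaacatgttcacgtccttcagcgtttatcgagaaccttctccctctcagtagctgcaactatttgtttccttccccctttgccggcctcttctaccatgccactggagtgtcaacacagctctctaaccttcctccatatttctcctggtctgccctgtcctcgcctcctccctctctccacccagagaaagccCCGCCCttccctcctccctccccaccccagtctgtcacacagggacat
BAZ2A, other start: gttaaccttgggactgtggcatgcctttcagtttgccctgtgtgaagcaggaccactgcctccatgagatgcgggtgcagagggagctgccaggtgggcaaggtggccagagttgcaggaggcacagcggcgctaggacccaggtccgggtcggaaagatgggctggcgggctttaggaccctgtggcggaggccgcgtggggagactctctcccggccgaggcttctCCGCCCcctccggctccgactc
The ATAD2B window held 1 GC box, the BRPF3 window 3, and each BAZ2A window 1. Their GC content was 72%, 76%, 56.4% and 66%, against a median of 58% over all 35116 promoter windows. A GC box was present in 42.6% of all windows and in 9 of the 13 windows of these 8 genes. They included windows of BRPF1, BRD1 and BAZ2B, which did not pass the test at 4 h of i-BET858. The letters CCAAT, searched on both strands and found in 32% of all windows, occurred in the ATAD2B window and in no other of the 13. TATAAA, found in 10.7% of all windows, occurred in none of the 13. A match of these letters is a description of the sequence and not a bound site.

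After 4 h of i-BET151, BPTF and BAZ2A fell. BPTF was at 119, 110 and 102 CPM, below all 3 DMSO libraries, with a log2 fold change of -0.59 (SE 0.15, adjusted p = 0.0197 in edgeR). BAZ2A was at 82.0, 75.0 and 106 CPM, also below DMSO throughout, with a log2 fold change of -0.60 (SE 0.17, adjusted p = 0.0353 in edgeR), and RBMS2 stood at 873 to 1612 counts in these libraries. These 2 of 10 genes compare with 16.2% of all genes called and, in this direction, with 8.43%. Neither call held without DMSO replicate 2 (adjusted p = 0.0743 for BPTF and 0.0907 for BAZ2A), DMSO replicate 3 (0.0825 and 0.124) or i-BET151 replicate 2 (0.0659 and 0.135). BPTF was also not called without i-BET151 replicate 3 (0.0525) or with all 18 libraries in 1 fit (0.0978), and BAZ2A without i-BET151 replicate 1 (0.118).

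The other genes that fell under i-BET858 were lower under i-BET151 in all 9 pairings of a treated with a DMSO library, but did not pass the test. ATAD2B was at 10.1, 11.7 and 10.6 CPM (log2 fold change -0.50, SE 0.21, adjusted p = 0.137 in edgeR) and BRPF3 at 28.9, 37.0 and 44.2 CPM (-0.58, SE 0.21, adjusted p = 0.0841). With the replicate number as a block both were called, at adjusted p = 0.0309 and 7.83e-04 in edgeR, as was the higher level of BRPF1, at 41.1, 45.5 and 45.1 CPM (0.31, adjusted p = 0.166 without and 0.047 with the block). The block thus raised the count from 2 to 5 of the 10 genes, while the share of all genes called rose from 16.2% to 32.7%. BRPF3 was also called by DESeq2 (adjusted p = 0.0491), with total library size (0.0472), without the filter on low counts (0.00892), with all 18 libraries in 1 fit (0.0308), in replicates 1 and 2 alone (0.0366) and without i-BET151 replicate 3 (0.0419). ATAD2 was at 240, 233 and 198 CPM (0.31, SE 0.16, adjusted p = 0.231 in edgeR). BRD1, BRD8 and BAZ2B had log2 fold changes of 0.16, 0.11 and -0.19 with adjusted p of 0.528 to 0.84, and CECR2, with 3, 3 and 7 counts, had -1.55 (SE 0.93, adjusted p = 0.301), or -2.35 (adjusted p = 0.0184) in replicates 1 and 2 alone. The median was -0.35 over the 10 genes and 0.01 over all genes.

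At 24 h the direction was different. No bromodomain gene of this set was called lower under either drug, against 21.3% and 16.6% of all genes under i-BET858 and i-BET151, ATAD2 and ATAD2B rose with both, and BAZ2A rose under i-BET151. With i-BET858, 2 of the 9 genes tested were called, both higher, against 41.7% of all 17157 genes called in either direction and 20.5% called higher. With i-BET151, 3 of 9 were called, all higher, against 33.8% in either direction and 17.2% higher. The medians over the 9 genes were 0.29 and 0.39, against -0.01 and 0.00 over all genes. In replicates 1 and 2 alone the medians were 0.23 and 0.19, with 5 higher and 1 lower called under i-BET858 and 3 higher and 1 lower under i-BET151, against 60.7% and 54.2% of all genes called. No change reached 2-fold, as against 18.8% and 13.7% of all genes. CECR2 was below the filter on low counts and was not tested: it had 6, 7 and 12 counts with DMSO, 3, 1 and 0 under i-BET858 and 15, 3 and 0 under i-BET151. Without i-BET151 replicate 3 it passed the filter, and its value under i-BET858 was called lower (-2.90, adjusted p = 0.0421 in edgeR). In no other fit that tested it was this value called, with adjusted p up to 0.226.

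ATAD2B was read at 12.1, 13.4 and 9.17 CPM with DMSO at 24 h, at 21.1, 17.3 and 19.3 CPM under i-BET858 and at 17.0, 20.4 and 16.8 CPM under i-BET151. Every treated library lay above every DMSO library. The log2 fold changes were 0.70 (SE 0.16, adjusted p = 0.00527 in edgeR) under i-BET858 and 0.62 (SE 0.16, adjusted p = 0.0123) under i-BET151, the latter lost without i-BET151 replicate 2 (adjusted p = 0.0638). ATAD2 was at 162, 158 and 130 CPM with DMSO, at 206, 186 and 184 CPM under i-BET858 and at 201, 223 and 176 CPM under i-BET151. Here too the treated libraries lay above the DMSO libraries.

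For ATAD2 the log2 fold changes at 24 h were 0.32 (SE 0.11, adjusted p = 0.0443 in edgeR) and 0.39 (SE 0.11, adjusted p = 0.0209). The i-BET858 call lay near the threshold and was lost on leaving out any of the 3 DMSO libraries (adjusted p = 0.0549, 0.0803 and 0.089), i-BET858 replicate 1 or 2 (0.158 and 0.0802) or i-BET151 replicate 1 (0.0607). The i-BET151 call was lost without i-BET151 replicate 1 or 2 (0.0639 and 0.103). With scaling by total library size both were lost (0.23, adjusted p = 0.207, and 0.36, adjusted p = 0.0618).

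BAZ2A stood at 126, 121 and 100 CPM with DMSO, 163, 129 and 143 CPM under i-BET858 and 133, 156 and 180 CPM under i-BET151. The treated libraries lay above DMSO for both drugs, by a log2 fold change of 0.29 (SE 0.14, adjusted p = 0.122 in edgeR) and 0.41 (SE 0.14, adjusted p = 0.0404). The i-BET151 call did not hold in 9 of the alternative fits, and the value is below a fold of 1.5. Among single libraries it was lost without DMSO replicate 1 (adjusted p = 0.0522), 2 (0.0836) or 3 (0.105) or without i-BET151 replicate 2 (0.0976) or 3 (0.146), and in replicates 1 and 2 alone the log2 fold change was 0.19 (adjusted p = 0.171). RBMS2, whose exons overlap those of BAZ2A, went the other way at this time, with 1888 to 1980 counts with DMSO, 691 to 1513 under i-BET858 and 1219 to 1379 under i-BET151.

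BPTF was at 145, 133 and 57.9 CPM with DMSO, 181, 153 and 131 CPM under i-BET858 and 159, 174 and 135 CPM under i-BET151. DMSO replicate 3 was far below the other 2, and the group stood at 112 ± 47.4 CPM (SD, n = 3). The log2 fold changes of 0.43 (SE 0.27, adjusted p = 0.233 in edgeR) and 0.46 (SE 0.27, adjusted p = 0.226) were not called. Both were called with the replicate block (adjusted p = 0.0219 and 0.0182). In replicates 1 and 2 alone the values were 0.23 (adjusted p = 0.0437) and 0.22 (adjusted p = 0.0633).

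BRD8, the NuA4/TIP60 subunit, did not pass the test at 24 h in the fit without the replicate number, and passed it with the number as a block. At 24 h it was at 70.0, 68.9 and 43.5 CPM with DMSO, 102, 108 and 64.5 CPM under i-BET858 and 96.0, 94.6 and 59.4 CPM under i-BET151. Replicate 3 was lowest in each condition, and the treated library was above the DMSO library of the same number in all 3 replicates for both drugs. Without the block the log2 fold changes were 0.55 (SE 0.24, adjusted p = 0.0943 in edgeR) and 0.43 (SE 0.24, adjusted p = 0.204). With the replicate block they were called, at adjusted p = 8.26e-05 and 7.2e-04, and so they were in replicates 1 and 2 alone, at 2.49e-05 and 3.55e-04. They were also called without the filter on low counts, at 1.26e-04 and 0.00825, and the value for i-BET858 was called without its replicate 3, at 0.0246. Exons of KIF20A, a mitotic kinesin, overlap 132 bases of BRD8 exon (1.9%) on the opposite strand, and KIF20A had 2992 to 3436 counts with DMSO, 5833 to 7964 under i-BET858 and 4699 to 5815 under i-BET151 at 24 h, beside 1367 to 2311, 2204 to 4697 and 2039 to 3931 for BRD8. These are raw counts from libraries of unequal depth. At 24 h the total was 27534213 to 30732002 with DMSO, 36427001 to 46299994 under i-BET858 and 31935349 to 39771042 under i-BET151. The part of KIF20A in the BRD8 counts was not tested.

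The acetyltransferase scaffolds were not called at 24 h. BRPF3 was at 46.3, 45.3 and 33.9 CPM with DMSO, 38.3, 36.7 and 43.1 CPM under i-BET858 and 39.7, 41.1 and 42.6 CPM under i-BET151, which overlap. Its log2 fold changes were -0.13 and -0.05 (SE 0.13 for both, adjusted p = 0.464 and 0.824 in edgeR), but in replicates 1 and 2 alone it was called lower with both drugs, at -0.32 (adjusted p = 0.00436) and -0.22 (adjusted p = 0.0355). BRPF1 was at 25.2 to 32.6 CPM with DMSO, 34.6 to 36.5 under i-BET858 and 31.1 to 35.7 under i-BET151 (log2 fold changes 0.24 and 0.17, adjusted p = 0.122 and 0.282). BRD1 was at 36.3 to 48.4, 40.2 to 61.1 and 51.5 to 54.7 CPM (0.25 and 0.26, adjusted p = 0.235 and 0.241). For i-BET858 the BRD1 value was called in replicates 1 and 2 alone (0.31, adjusted p = 0.00397) and without i-BET858 replicate 3 (0.44, adjusted p = 0.022). BAZ2B overlapped between all groups, at 11.3 to 24.9 CPM, and its log2 fold change was -0.02 with each drug.

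**Figure D2:**
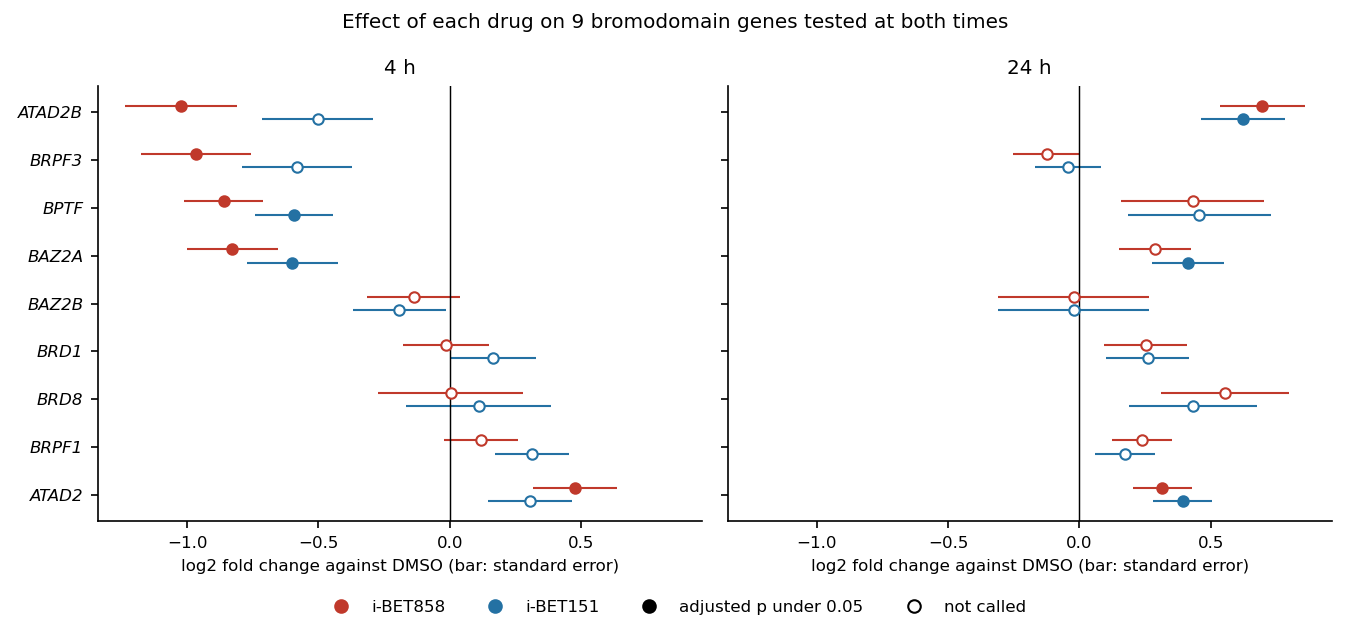
Log2 fold change against DMSO (x axis, points; bars are the standard error of edgeR) for the 9 genes tested at both times, with red points for i-BET858, blue points for i-BET151 and filled points for an adjusted p under 0.05. At 4 h ATAD2B, BRPF3, BPTF and BAZ2A sit between -1.02 and -0.83 under i-BET858, and at 24 h between -0.13 and 0.70.

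The change between the times was tested as a drug-by-time interaction over all 18 libraries, which asks whether an effect against DMSO at 24 h differs from that at 4 h. For i-BET858, 4 of the 10 genes were called, all towards a higher value at 24 h, against 27.2% of all 18154 genes called and 14.6% in this direction. They were ATAD2B (1.76 on the log2 scale, SE 0.27, adjusted p = 1.37e-04 in edgeR), BPTF (1.33, SE 0.34, adjusted p = 0.00647), BAZ2A (1.16, SE 0.23, adjusted p = 0.0011) and BRPF3 (0.88, SE 0.26, adjusted p = 0.0154), the genes that had fallen at 4 h. The 3 of them above 1 compare with 15.1% of all genes called at 2-fold or more. The BRPF3 call was lost in replicates 1 and 2 alone (0.66, adjusted p = 0.0549). BRD8 differed by 0.59 (SE 0.40, adjusted p = 0.313), and by 0.61 with an adjusted p of 0.00182 under the replicate block.

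For i-BET151, 3 of 10 genes were called, against 13.8% of all genes and 6.99% in this direction. They were ATAD2B (1.14, SE 0.27, adjusted p = 0.00924 in edgeR), BPTF (1.06, SE 0.34, adjusted p = 0.0419) and BAZ2A (1.03, SE 0.23, adjusted p = 0.00621). The BPTF call was lost in 11 alternative fits, 9 of which left out a single library, with adjusted p up to 0.105. From 4 h to 24 h the DMSO levels of these genes and BRPF3 differed by -0.57 (BPTF) to -0.20 (BAZ2A). None of the 10 genes was called in that comparison by edgeR or DESeq2, against 0.0386% of all genes with edgeR, and 2 of them, BPTF and BRPF3, had an unadjusted p under 0.05, against 9.17% of all genes. Without the filter on low counts BPTF was called (adjusted p = 0.0205).

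Counts of related genes in the same library gave a view that does not depend on scaling between libraries. The ratio of ATAD2B to ATAD2 counts was 0.0672, 0.108 and 0.0819 with DMSO at 4 h, 0.0344, 0.0291 and 0.0264 under i-BET858 and 0.042, 0.0501 and 0.0536 under i-BET151. At 24 h it was 0.0749, 0.085 and 0.0704 with DMSO, 0.103, 0.0929 and 0.105 under i-BET858 and 0.0846, 0.0918 and 0.0953 under i-BET151. The ratio was thus below all DMSO libraries with both drugs at 4 h, and above all 24 h DMSO libraries under i-BET858 but overlapping them under i-BET151. These ratios describe unequal change of the pair and are not corrected for length.

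Among the MYST scaffolds, the ratio of BRPF3 to BRPF1 counts was 1.38, 1.74 and 1.53 with DMSO at 4 h, and 0.604, 0.733 and 0.856 under i-BET858 and 0.703, 0.812 and 0.98 under i-BET151. At 24 h it was 1.42, 1.49 and 1.35 with DMSO, 1.11, 1.01 and 1.21 under i-BET858 and 1.11, 1.2 and 1.37 under i-BET151. The ratio was still below all DMSO libraries under i-BET858 at 24 h, although neither gene was called there alone. The ratio of BRPF3 to BRD1 counts, by contrast, was 0.955 ± 0.0202 (SD, n = 3) with DMSO at 24 h and 0.65, 0.6 and 1.07 under i-BET858, which overlap, and 0.726, 0.773 and 0.827 under i-BET151, below DMSO. At 4 h it was 0.846 to 1.24 with DMSO, 0.413 to 0.775 under i-BET858, below DMSO, and 0.483 to 0.907 under i-BET151, which overlaps. The ratio of BAZ2A to BAZ2B counts was 6.27 to 6.99 with DMSO at 4 h, 3.14 to 4.57 under i-BET858 and 4.14 to 5.44 under i-BET151, and at 24 h 5.38 to 8.83, 7.41 to 8 and 6.27 to 14.9, which overlap.

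**Figure D3:**
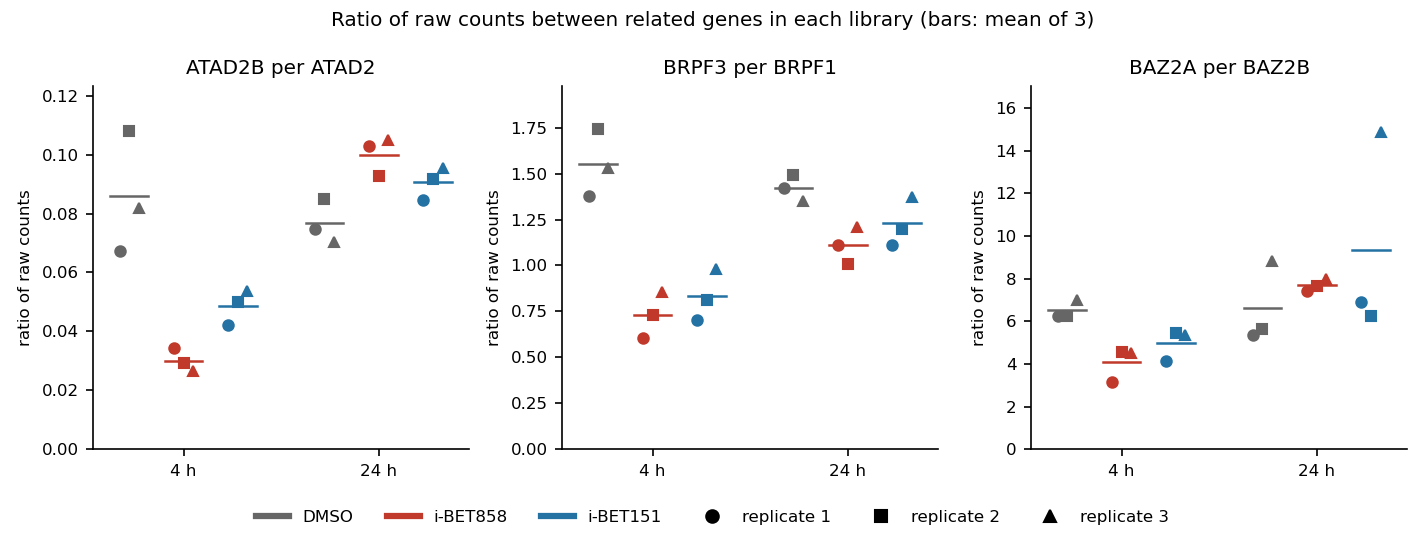
Ratio of raw counts (y axis, from 0) of ATAD2B to ATAD2, BRPF3 to BRPF1 and BAZ2A to BAZ2B in each library, by time and treatment, with bars for the mean of 3 replicates. The mean ATAD2B per ATAD2 ratio was 0.0858 with DMSO, 0.03 under i-BET858 and 0.0486 under i-BET151 at 4 h, and 0.0768, 0.1 and 0.0906 at 24 h.

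The drugs were compared directly at the same dose and time, in 19 tests (10 genes at 4 h and 9 at 24 h), with p adjusted over all genes. No bromodomain gene of the set was called by edgeR or DESeq2, against 0.971% of all genes at 4 h and 0.21% at 24 h with edgeR. At an unadjusted p under 0.05 there was 1 at 4 h, ATAD2B, against 11.9% of all genes, and 0 at 24 h, against 11.4%. ATAD2B was lower under i-BET858 than under i-BET151 in all 9 pairings of libraries at 4 h, with a difference of -0.52 on the log2 scale (95% interval -0.99 to -0.05, adjusted p = 0.345 in edgeR). BRPF3 had a difference of -0.38 (95% interval -0.84 to 0.07, adjusted p = 0.534), which was called with the replicate block (adjusted p = 0.0387), under which the share of all genes called rose to 9.63%. Leaving out CECR2, the intervals of all differences between the drugs lay between -0.99 and 0.52 at 4 h and between -0.63 and 0.66 at 24 h, so differences within these bounds were not resolved. For CECR2 at 4 h the interval was -0.92 to 3.18. With scaling by total library size, the share of called genes that were higher under i-BET858 went from 42.5% to 16.6% at 4 h and from 44.4% to 26.8% at 24 h.

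The spread of the 6 condition means, on log2 CPM, was 1.33 for ATAD2B, 1.06 for BAZ2A, 0.97 for BRPF3 and 0.86 for BPTF, down to 0.20 for BAZ2B. For the 3 genes with the widest spread, the genes outside the set with the most similar course over the 6 conditions were found by the root mean square difference of centred condition means. The nearest to ATAD2B were KIF3B, which encodes a kinesin motor subunit (0.051), and STRN, which encodes striatin (0.061). The nearest to BAZ2A were TMF1 (0.04) and NEK4 (0.054), and those to BRPF3 were AMMECR1L (0.035) and MMAA (0.042). The likeness is a description over 6 means.

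Genes of the BET family, the targets of the drugs, were read beside them. BRD2 rose in all 4 comparisons, by 1.33 and 0.76 under i-BET858 and i-BET151 at 4 h and by 1.00 and 0.66 at 24 h (adjusted p of 6.92e-06 to 0.00781 in edgeR). BRD3 was not called at 4 h (0.38 under i-BET858 and 0.13 under i-BET151), although the replicate block called both BRD2 and BRD3 higher at 4 h of i-BET858. At 24 h it rose by 0.51 under i-BET858 and 0.44 under i-BET151. BRDT had at most 0.319 CPM in any library and was not tested.

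A list of 28 further bromodomain genes, of which 27 were tested, had 4 genes higher and 12 lower after 4 h of i-BET858, with a median log2 fold change of -0.49, which is 14.8% and 44.4% of the list against 14.5% and 16.3% of all genes. After 4 h of i-BET151 there were 2 higher and 8 lower, with a median of -0.30, or 7.41% and 29.6% against 7.81% and 8.43%. At 24 h the counts were 7 higher and 6 lower (median 0.13) and 6 higher and 7 lower (median 0.21), the former 25.9% and 22.2% against 20.5% and 21.3% of all genes and the latter 22.2% and 25.9% against 17.2% and 16.6%. In replicates 1 and 2 alone these medians were 0.04 and 0.06. The interaction was called higher at 24 h for 10 of these 27 and lower for 2 under i-BET858, and for 6 and 2 under i-BET151 (11 and 3 with the replicate block). Of all genes, the interaction was called higher and lower for 14.6% and 12.6% under i-BET858 and for 6.99% and 6.82% under i-BET151 (13.2% and 12.0% with the block). In replicates 1 and 2 alone the interaction was called higher for 10 and lower for 6 of the list under i-BET858, against 20.0% and 20.5% of all genes. Whether the lists differ was not tested. The replicate block gave 4 higher and 13 lower under i-BET151 at 4 h, against 15.6% and 17.0% of all genes. The largest called rises at 24 h of i-BET858 were TRIM24, a nuclear receptor cofactor (1.43), and BAZ1A, a subunit of ISWI complexes (1.11). The largest falls were SP100, a component of PML nuclear bodies (-1.97), and its relative SP140L (-1.76).

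**Figure D4:**
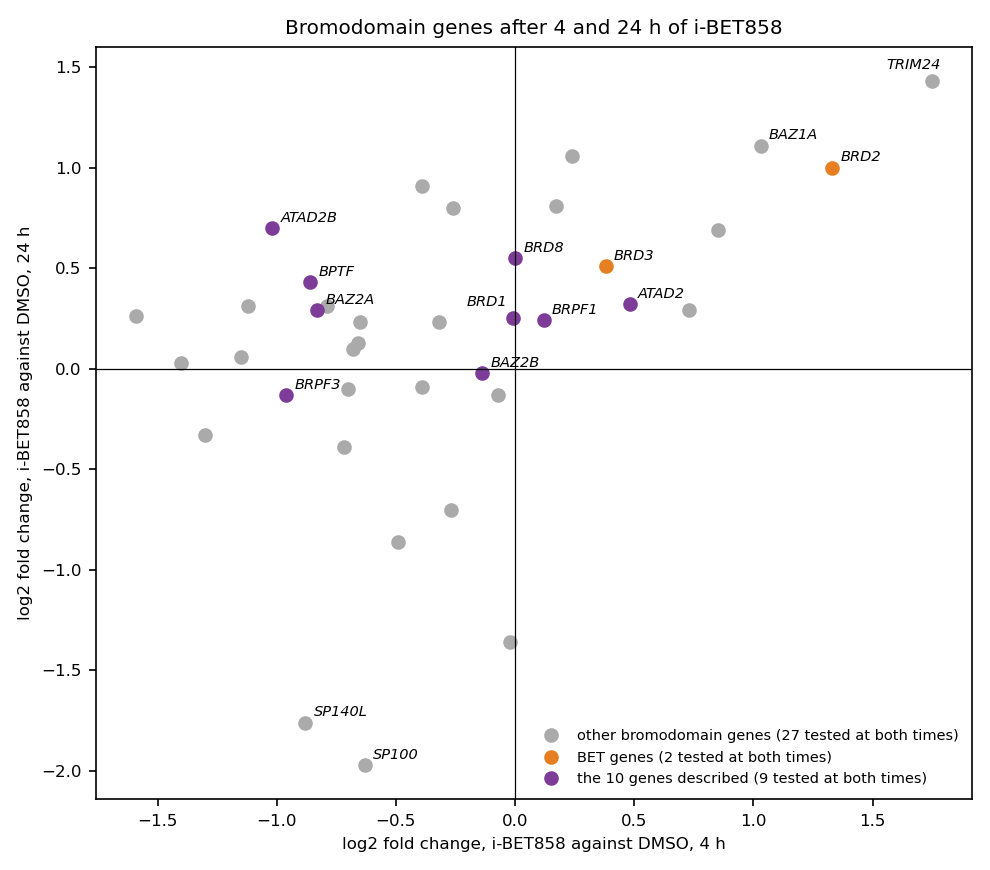
Log2 fold change of bromodomain genes under i-BET858 against DMSO at 4 h (x axis) and at 24 h (y axis), each point 1 gene; the 9 described genes tested at both times are purple, 2 BET genes orange and 27 further bromodomain genes grey, with names for the purple and orange points and for the genes with the largest called rises and falls. ATAD2B lies at -1.02 and 0.70, BRD2 at 1.33 and 1.00.

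Partner subunits of the complexes in which the bromodomain proteins work were read in the same fits. Their counts stand against the shares of all genes called higher and lower, which at 4 h were 14.5% and 16.3% under i-BET858 and 7.81% and 8.43% under i-BET151, and at 24 h 20.5% and 21.3%, and 17.2% and 16.6%. With the replicate block these shares were 22.3% and 23.0%, and 15.6% and 17.0%, at 4 h and 25.7% and 26.3%, and 23.2% and 22.6%, at 24 h. Of 9 partners of the BRPF scaffolds (KAT6A, KAT6B, KAT7, their ING and MEAF6 subunits and the alternative JADE scaffolds), none rose and 6 fell under i-BET858 at 4 h (median -0.67), and none rose and 4 fell under i-BET151 (6 with the replicate block). At 24 h, 1 rose and 3 fell under i-BET858 and 1 rose and 2 fell under i-BET151. KAT6A, the acetyltransferase bound by BRPF1, rose at 24 h by 0.74 and 0.78. JADE2, a scaffold that takes the place of BRPF proteins on KAT7, fell at 4 h by 1.67 and 1.73 and at 24 h by 3.98 and 3.14, and JADE1 fell by 0.50 at 24 h of i-BET858.

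Of 16 partners of BRD8 in NuA4/TIP60, none rose and 8 fell at 4 h of i-BET858 (median -0.61), or 2 rose and 10 fell with the replicate block, and none rose and 5 fell under i-BET151. At 24 h, 1 rose and 6 fell under i-BET858, and 1 rose and 3 fell under i-BET151, or 6 with the replicate block. EP400, the ATPase of the complex, rose at 24 h of i-BET858 by 0.36 (with total library size the list had none higher and 8 lower), whereas EPC1, which bridges subunits, fell by 0.61 and RUVBL1, an AAA+ ATPase, fell by 0.52. Of 5 ISWI partners of BPTF, CECR2, BAZ2A and BAZ2B, 2 fell under i-BET858 at 4 h (1 rose and 2 fell with the replicate block) and 1 at 24 h, the ATPase gene SMARCA1 (-0.72), and none passed the test under i-BET151 at either time. For i-BET151 the replicate block called 1 higher and 2 lower at each time, as it did for i-BET858 at 24 h, and at 4 h total library size called 2 lower and replicates 1 and 2 alone 1 lower.

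A list of 35 S-phase genes that are E2F targets, the programme in which ATAD2 is counted, had 8 higher and 8 lower (7 and 11 with total library size) at 4 h of i-BET858 (median -0.02) and 2 higher and 17 lower at 24 h (median -0.31), or 22.9% each way at 4 h and 5.71% and 48.6% at 24 h, against 14.5% and 16.3%, and 20.5% and 21.3%, of all genes. With i-BET151 the counts were 6 higher and 4 lower at 4 h (8 and 9 with the replicate block, 5 and 7 with total library size), and 2 higher and 11 lower at 24 h, against 7.81% and 8.43% (15.6% and 17.0% with the block), and 17.2% and 16.6%, of all genes. ATAD2 rose at 24 h with both drugs, while the lower genes of the list included E2F2 (-2.06 under i-BET858), an E2F factor, and POLE2 (-1.81), a subunit of DNA polymerase epsilon. CLSPN, a checkpoint mediator, and CHAF1B, a histone chaperone subunit, rose by 0.65 and 0.48, and with total library size 1 gene of the list was called higher. At 24 h the replicate block gave 4 higher and 21 lower under i-BET858 and 3 and 15 under i-BET151. Of all genes it called 25.7% and 26.3%, and 23.2% and 22.6%. In replicates 1 and 2 alone the counts were 5 and 22, and 6 and 16. The shares of all genes there were 29.8% and 31.0%, and 26.0% and 28.1%.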

How the data were processed

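Poly-A RNA from OVCAR-3 cells was sequenced in 18 libraries. Per the labels, the submitters' processing notes name STAR, DESeq2 and the build GRCh38 (hg38). Genes were counted by the GeneCounts option of STAR per the study's methods, and the annotation is not given in the sources used here. The deposited values were raw read counts per Ensembl gene, 1 table per time point, and the time of a table was taken from its name. Of 58825 identifiers, 58472 (99.4%) matched GENCODE 44, and 23896 genes had no count in any library. Replicates are separate samples per the labels and biological replicates per the study's text. Members and gene lists were chosen with earlier results of these data known. The named genes are all 10 members, the BET genes BRD2, BRD3 and BRDT and, from each list, up to 2 called genes with the largest rise and 2 with the largest fall at 24 h of i-BET858.

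Counts were filtered with filterByExpr, scaled with TMM and tested with the quasi-likelihood test of edgeR 4.0.16 in R 4.3.3, with Benjamini-Hochberg adjustment over all genes and a call at an adjusted p under 0.05. Each time point was fitted with its 9 libraries, and the interaction and the DMSO comparison with all 18. CPM are counts per 1000000 counts in the filtered genes of a library, scaled with TMM factors found over all 18 libraries. Statements that libraries overlap or lie apart use these CPM. SE and 95% intervals come from the fitted model, and limits of 3 counts cover counting error only. Data were simulated for i-BET858 against DMSO at 4 h, with 200 of 16806 genes changed and libraries drawn independently. There, 68 of 100 genes changed 2-fold and 100 of 100 changed 4-fold were recovered, with 6 false calls. The real comparison called 30.8% of genes, and its libraries deviated together as given next, so these rates may not hold there. Libraries of the same replicate number deviated together from their condition means (correlations of 0.222 to 0.491 at 4 h and 0.177 to 0.456 at 24 h). Their medians were 0.417 and 0.36. Libraries of different numbers had medians of -0.273 and -0.318 but reached 0.265 and 0.433, so the ranges overlapped. By the medians the numbers pair the libraries, and a block on replicate number was an alternative. Others were DESeq2 1.42.0, its size factors, total library size, no filter or at least 10 counts in every library, only the 2 groups, all 18 libraries, replicates 1 and 2 only, each library left out, and folds of 1.5 or 2. A gene that the naming rule covers is not reported here.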

Additional observations from a re-analysis of the deposited data

Results flagged for a closer look

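The effect of a drug against DMSO differed between 4 h and 24 h, by the test of the interaction over 18 libraries in edgeR, for 4 of the 10 genes under i-BET858, where 27.2% of all genes were called, and for 3 under i-BET151, where 13.8% were. With i-BET858 the effect was higher at 24 h by 1.76 on the log2 scale for ATAD2B, 1.33 for BPTF, 1.16 for BAZ2A and 0.88 for BRPF3. With i-BET151 it was higher by 1.14 for ATAD2B, 1.06 for BPTF and 1.03 for BAZ2A. The BPTF call with i-BET151 was lost in 11 alternative fits, and the BRPF3 call with i-BET858 in replicates 1 and 2 alone (adjusted p = 0.0549 in edgeR). Both drugs share the DMSO libraries. For BPTF the DMSO level itself was lower at 24 h, at 112 ± 47.4 CPM against 166 ± 23.4 CPM at 4 h (SD, n = 3), with replicate 3 at 57.9 CPM. In replicates 1 and 2 alone the BPTF interactions were 0.92 (adjusted p = 8.25e-04 in edgeR) and 0.69 (adjusted p = 0.0107).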

How the results depend on the processing

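Of 977 values recomputed under the alternatives, 866 kept their direction and side of the threshold, 31 became called, 49 lost their call and 31 changed sign. These values were the tested drug effects against DMSO, the interactions of ATAD2B, BPTF, BRPF3, BAZ2A and BRD8, and the 4 h drug differences of ATAD2B and BRPF3. Other interactions, other drug differences and the DMSO comparison were not included. Of the 29 alternatives, the folds of 1.5 and 2 entered only the counts of called genes. The counts of called bromodomain genes that moved by over 1.5 times are given here, with the share of all genes called under the same setting in parentheses, and the cause was not tested. The other counts of these comparisons were within 1 of the value without the alternative. For i-BET858 at 4 h the count went from 5 to 1 at a fold of 2 (14.1%). For i-BET151 at 4 h it went from 2 to 5 with the replicate block, 4 with replicate 3 left out throughout (32.7% and 25.9% of all genes) and 0 at a fold of 2 (7.1%), and ranged from 0 to 2 with 1 library left out (9.44% to 18.3%). For i-BET858 at 24 h it went from 2 to 1 with total library size (41.1%), 4 without a filter (23.4% of all genes), 1 with all 18 libraries in the fit (38.9%), 4 with the replicate block (52.0%), 6 with replicate 3 left out throughout (60.7%), 1 at a fold of 1.5 (31.3%) and 0 at a fold of 2 (18.8%), and ranged from 1 to 4 with 1 library left out (32.7% to 44.9%). For i-BET151 at 24 h it went from 3 to 1 with total library size (33.2%), 5 without a filter (19.1%), 5 with the replicate block (45.9%), 1 at a fold of 1.5 (24.4%) and 0 at a fold of 2 (13.7%), and ranged from 0 to 3 with 1 library left out (23.8% to 35.1%). Between the drugs at 4 h it went from 0 to 1 with the replicate block (9.63%), and between the times in DMSO from 0 to 1 without a filter (0.461%). The count for the interaction with i-BET858 stayed at 4 with any library left out (21.5% to 27.9%), and that with i-BET151 ranged from 2 to 3 (8.45% to 14.3%).

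Among the drug effects against DMSO, the values that changed sign were all uncalled, and only these are listed. In replicates 1 and 2 alone, uncalled values of other comparisons changed sign too. Examples were BRPF1 in the i-BET858 interaction (0.161 to -0.085) and BAZ2A between the drugs at 24 h (-0.126 to 0.025). At 4 h of i-BET858, BRPF1 was -0.04 with total library size and -0.01 to 0.19 with a library left out. BRD1 was 0.00 with DESeq2, with its size factors and with only the 2 groups, 0.01 with at least 10 counts in every library, 0.13 in replicates 1 and 2, and -0.18 to 0.13 with a library left out. BRD8 was -0.15 with total library size, -0.01 without a filter and -0.02 with the replicate block, and -0.15 to 0.21 with a library left out, and CECR2 was -1.55 to 0.04 with a library left out, the latter without DMSO replicate 2. At 4 h of i-BET151, BRD8 was -0.09 to 0.36 with a library left out. At 24 h of i-BET858, BAZ2B was 0.00 without a filter, 0.01 with all 18 libraries, 0.04 with the replicate block and -0.26 to 0.17 with a library left out. At 24 h of i-BET151, BRPF3 was -0.15 to 0.03, and BAZ2B -0.27 to 0.20, with a library left out. Depth limits CECR2, which had 0 to 25 counts in a library.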
